A study of Mus musculus with 27 samples.

Results

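The genes described here make, remove, carry or respond to retinoic acid, the active form of vitamin A: Rdh10, Aldh1a2, Dhrs3, Cyp26a1, Rara, Rarb, Rarg, Crabp1 and Crabp2. They were chosen by name, with earlier results of these data known. Every probe set annotated to 1 of these genes and to no other was kept. That gave 9 genes of the 15964 with a probe set of their own, measured by 18 of 36701 probe sets. The samples were mouse limb bud cells from the subridge region that turn into cartilage cells in culture, profiled on 3 Affymetrix MG_U74 version 2 array types (A, B and C, each with a different set of probes). The groups were mesenchymal cells labelled multipotential, chondroprogenitors taken at day 1 of differentiation, and chondroblasts taken at day 3. Each group held 3 samples, so that 9 RNA samples and 27 arrays were measured in all. No strain, genotype, age or added agent is given in the labels for any group, and all groups carry the same purity (90 to 95%) and the same named contaminant, fibroblasts. The replicates are numbered 1, 3 and 4 in each group, and the labels do not say whether they came from separate cultures or animals. The p-values therefore rest only on how much these samples vary, and that variation may be technical.

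Retinoic acid is made from retinol in a pair of oxidation steps. Retinol dehydrogenases such as Rdh10 give retinaldehyde, and retinaldehyde dehydrogenases such as Aldh1a2 turn it into retinoic acid. Dhrs3 works against the first step by reducing retinaldehyde back to retinol, and Cyp26 enzymes break retinoic acid down. Inside the cell, Crabp proteins bind retinoic acid, and in the nucleus it binds the retinoic acid receptors Rara, Rarb and Rarg, which sit on DNA together with retinoid X receptors. In limb buds retinoic acid signalling is known to oppose cartilage differentiation, and Rarb and Cyp26a1 are textbook targets of the pathway in many cell types.

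The receptors bind direct repeats of a 6-base motif, commonly spaced by 5 bases. In the RefSeq promoter table (build GRCm38.p6, 250 bases before to 50 after each listed start), direct repeats were searched on both strands. Each of the 2 copies could be the motif AGGTCA itself or a variant of it, with the letters AGTTCA in the first variant, then the letters GGGTCA in another and the letters GGTTCA in the last. The copies could differ from each other, and an overlap with another repeat was not excluded. A repeat with a 5-base spacer stood in 32 of 32851 windows, or 0.0974% of them. Of the 13 windows of 7 of the genes, 1 window of Rarb and 1 of Cyp26a1 held such a repeat. No window of Aldh1a2, Dhrs3, Rara, Rarg or Crabp1 did, and none of the 13 held a repeat with a spacer of 1 or 2 bases, which occurred in 0.222% and 0.268% of all windows. The stretches before the start are shown for these 2 genes, the only ones of the 7 with a repeat in a searched window. Rdh10 and Crabp2 had no window to search. The Rarb stretch shown lies on the minus strand at chr14:16575477-16575726, inside the annotated gene (chr14:16430839-17082331). The Cyp26a1 stretch shown lies on the plus strand at chr19:37697558-37697807, across the 5′ end of the annotated gene (chr19:37697738-37701536). Capitals mark the motif copies, and a repeat on the opposite strand appears as TGAACT.
Rarb: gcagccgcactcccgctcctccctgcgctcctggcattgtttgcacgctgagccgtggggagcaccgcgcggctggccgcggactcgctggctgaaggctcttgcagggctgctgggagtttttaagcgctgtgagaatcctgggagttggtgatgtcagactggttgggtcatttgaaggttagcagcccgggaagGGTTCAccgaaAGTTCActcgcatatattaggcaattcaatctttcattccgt
Cyp26a1: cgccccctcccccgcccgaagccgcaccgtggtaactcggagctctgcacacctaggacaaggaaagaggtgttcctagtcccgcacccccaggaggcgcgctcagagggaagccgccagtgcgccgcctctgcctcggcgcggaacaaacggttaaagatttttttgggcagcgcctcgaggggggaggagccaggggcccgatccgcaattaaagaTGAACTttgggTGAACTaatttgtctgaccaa
The Rarb repeat, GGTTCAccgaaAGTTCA, lay 37 to 53 bases before the start on the gene's own strand. The Cyp26a1 repeat, read on the opposite strand as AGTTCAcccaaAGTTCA, lay 16 to 32 bases before the start. Both distances are counted to the listed start used for the window, and both repeats lie inside the annotated genes. A match of letters is a description and does not show binding in these cells.

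Values below are the deposited MAS5 signals after each array was rescaled so that its trimmed mean was 500, called the rescaled signal. Differences were tested on log2(rescaled signal + 50) with limma over the 9 samples, and adjusted p-values (Benjamini-Hochberg) run over all 23545 probe sets whose mean reached 200 in at least 1 group. Log2 changes carry the limma SE with n = 3 samples per group, group means carry the SD (n = 3), and a gene passed at an adjusted p below 0.05. A fold is given only where both group means reached 200. A gene with several probe sets is represented by 1 of them, taken from type A if there is one, otherwise from B and last from C, and within a type the one with the highest mean. In these bulk samples fewer cells of a type and less RNA per cell cannot be told apart.

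Array-wide facts that bear on the genes are as follows. Pearson correlations between replicates of a group ranged from 0.800 to 0.981 over the array types. Summed signals of 13 chondrocyte markers were 4672 to 5835 in mesenchymal, 19492 to 22886 in day 1 and 25711 to 38899 in day 3 samples, and 11 of 11 tested chondrocyte markers were higher at day 3 than in mesenchymal cells. The representative probe set of Col2a1, the main cartilage collagen, lay below the signal filter in every group. Summed signals of 12 fibroblast markers were 13297 to 14282, 14247 to 15763 and 29504 to 35244, those of 9 endothelial markers 2936 to 3609, 579 to 866 and 735 to 917, and those of 5 erythroid markers 113879 to 250798, 8653 to 114745 and 6289 to 19396. Those of 8 macrophage markers were 958 to 2059, 1208 to 1864 and 2124 to 2581. Of the 8, 5 were tested. Among them C1qa rose at day 1 (log2 change 1.94 ± 0.25, limma adjusted p = 0.000652), and Lyz2 rose from day 1 to day 3 (1.92 ± 0.30, limma adjusted p = 0.00675). The others passed in no comparison. At day 1 C1qb (-0.70 ± 0.47, limma adjusted p = 0.473) and Csf1r (-0.93 ± 0.38, limma adjusted p = 0.211) were lower. Cd68 was higher (0.58 ± 0.25, limma adjusted p = 0.232). The macrophage markers thus did not move together. Endothelial and erythroid signals thus stood higher in every mesenchymal sample than in any day 3 sample, and fibroblast and macrophage signals were highest at day 3. The part of these other cell types in the changes of the 9 genes was not tested. Scan groups (arrays scanned close in time) matched the sample groups in part. On type A mesenchymal replicates 1 and 3 were scanned with day 1 replicate 1, and the other day 1 samples with day 3. Mesenchymal replicate 4 was in a scan group of its own on every type. On types A and B no mesenchymal array was scanned with a day 3 array. Day 3 and mesenchymal cells thus cannot be compared within a scan group on these types. On type B the 3 day 3 samples form a scan group of their own, so there scan and day 3 cannot be told apart. Mesenchymal replicate 1, day 1 replicate 4 and day 3 replicate 4 had the highest 18S ribosomal probe signal, 27447, 33264 and 19946 against 1623 to 5631 in the other 6 samples.

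At day 1, 6 of the 9 genes rose against mesenchymal cells (Rdh10, Aldh1a2, Dhrs3, Cyp26a1, Rarb and Rarg), 1 fell (Crabp1), and Rara and Crabp2 did not pass. In this comparison 4.79% of all tested probe sets passed, 3.61% higher and 1.18% lower. The median log2 change of the 9 genes was 1.69, against -0.05 over all tested probe sets. From day 1 to day 3 no gene rose and 2 fell (Aldh1a2 and Crabp2), where 1.61% of all tested probe sets passed, 1.13% higher and 0.484% lower. The median of the 9 genes was -0.14 there, against -0.03 over all. At day 3 against mesenchymal cells 5 genes were higher (Rdh10, Aldh1a2, Dhrs3, Rarb and Rarg) and 2 were lower (Crabp1 and Crabp2), where 10.6% of all tested probe sets passed, 6.54% higher and 4.03% lower. The median of the 9 genes was 0.89 there, against -0.08 over all. By the moderated F test over the 3 groups 7 of the 9 genes changed, with 8.95% of all tested probe sets passing. The representatives of 7 genes at day 1 lay above the mesenchymal samples without overlap and 1 below (11.8% and 11.5% of all tested probe sets did). Between day 1 and day 3, 2 were higher and 3 lower without overlap (9.04% and 9.51% of all), and at day 3 against mesenchymal cells 6 were higher and 2 lower (13.3% and 14.3% of all). The comparisons share samples, so their counts are not independent of each other. Over the 11237 tested genes, with 1 representative each, 4.78% were higher and 1.38% lower at day 1. From day 1 to day 3 these shares were 1.78% and 0.676%, and at day 3 against mesenchymal cells 9.03% and 5.06%. Because the genes were chosen with earlier results known, their counts and medians beside those of all probe sets or genes are a description only.

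**Figure D1:**
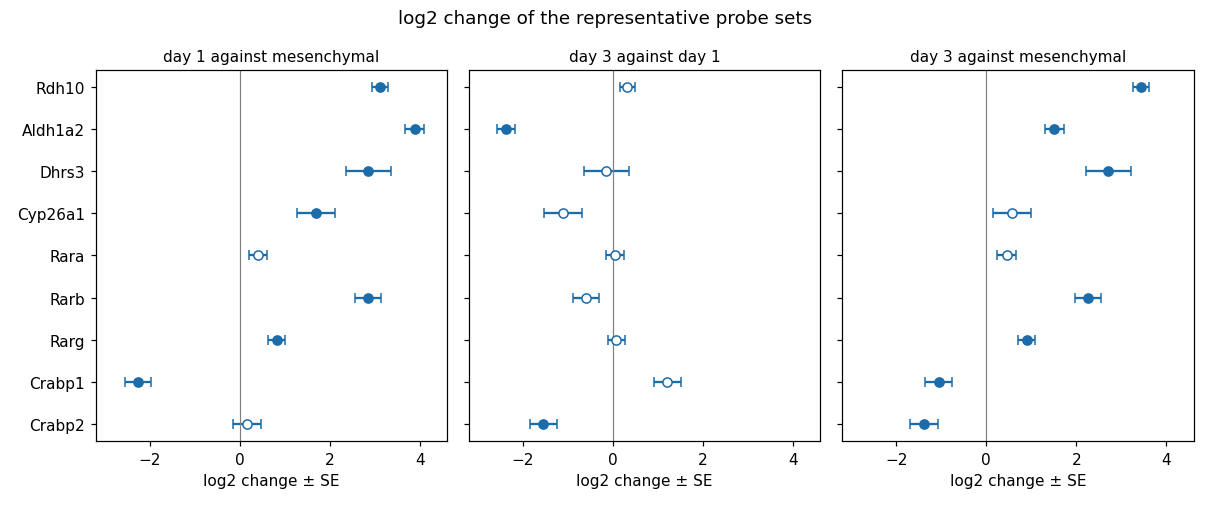
Log2 change of the representative probe set of each gene (x axis, log2 units, bars are the limma SE) in the 3 comparisons. Filled points passed at an adjusted p below 0.05 and open points did not: Rdh10, Aldh1a2, Dhrs3, Cyp26a1, Rarb and Rarg lie to the right at day 1, Crabp1 to the left, and between day 1 and day 3 only Aldh1a2 and Crabp2 are filled.

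Rdh10, the retinol dehydrogenase of the first synthesis step, rose at day 1 and was at the same order of signal at day 3. Its representative probe set (115816_at, type B) gave 2026, 2383 and 2564 in mesenchymal replicates 1, 3 and 4, then 21501, 19422 and 20348 at day 1 and 26160, 26831 and 23696 at day 3. Every day 1 and day 3 sample stood above every mesenchymal one. The mean went from 2324 ± 274 to 20424 ± 1041, a log2 change of 3.11 ± 0.18 (8.65-fold, limma adjusted p = 3.17e-07). At day 3 it was 25562 ± 1651, 3.44 ± 0.18 on the log2 scale above mesenchymal cells (10.8-fold, limma adjusted p = 2.95e-08). The 3 day 3 samples were also above the 3 day 1 samples, but by 0.32 ± 0.18 on the log2 scale, which did not pass (limma adjusted p = 0.567).

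Of the other Rdh10 probe sets, 2 rose as well. Probe set 113074_at gave 227 to 446 in mesenchymal cells, 2735 to 4090 at day 1 and 3930 to 5599 at day 3, and rose by 3.26 ± 0.24 at day 1 on the log2 scale (limma adjusted p = 1.91e-06). Probe set 163634_at gave 56.8 to 359, 3448 to 4604 and 4656 to 7640, and rose by 4.27 ± 0.36 (limma adjusted p = 7.31e-06). The last Rdh10 probe set, 106548_at, lay between 54.9 and 327 and was not tested because it stayed below the signal filter. Within the type B scan group that holds 3 day 1 and 2 mesenchymal samples, the representative differed by 3.19 on the log2 scale, close to the value over all samples.

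Aldh1a2, the retinaldehyde dehydrogenase that produces retinoic acid in the embryo, peaked at day 1. The representative probe set (101707_at, type A) gave 326, 217 and 331 in mesenchymal replicates 1, 3 and 4, then 5803, 5342 and 3835 at day 1 and 1022, 825 and 888 at day 3. The 3 groups did not overlap in any pair: mesenchymal samples were lowest, day 3 samples in between and day 1 samples highest. The mean rose from 291 ± 64.5 to 4993 ± 1029, a log2 change of 3.88 ± 0.21 (14.7-fold, limma adjusted p = 8.31e-07). It then fell to 912 ± 100.5, a log2 change of -2.37 ± 0.21 (5.18-fold lower, limma adjusted p = 8.36e-05). Paired by replicate number, with day 1 and day 3 samples fitted alone, the adjusted p of that fall was 6.51e-06. This pairing, also used below, was read from the data, is not given by the labels and is uncertain.

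At day 3 Aldh1a2 was still 1.51 ± 0.21 above mesenchymal cells on the log2 scale by this probe set (2.84-fold, limma adjusted p = 0.000545). The probe sets differ on this last comparison. Probe set 169954_i_at on type C gave 2123, 1420 and 1225 in mesenchymal cells, 4882, 5105 and 4445 at day 1 and 1499, 1946 and 1277 at day 3. It shared the day 1 peak, at 1.60 ± 0.27 up (3.04-fold, limma adjusted p = 0.00245) and -1.60 ± 0.27 back down (limma adjusted p = 0.00596), but its day 3 and mesenchymal samples overlapped and differed by 0.00 ± 0.27 (limma adjusted p = 0.996). Probe set 167134_r_at, between 65.7 and 505, changed in no comparison that passed (lowest limma adjusted p = 0.456). Within scan groups of type A, the day 1 sample stood 4.21 above 2 mesenchymal samples and 3 day 3 samples differed from 2 day 1 samples by -2.26 on the log2 scale.

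**Figure D2:**
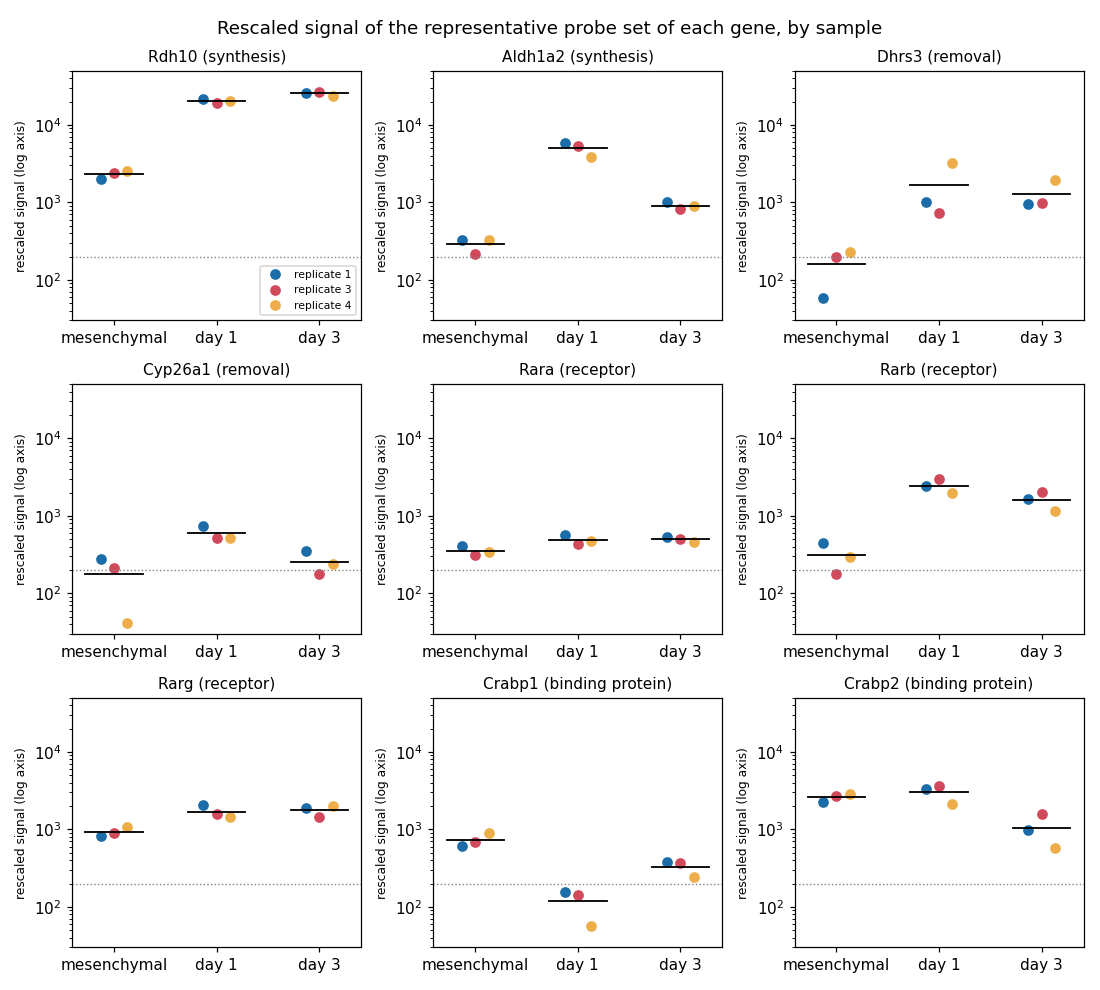
Rescaled signal (y axis, log scale) of the representative probe set of each gene in every sample. Points are single samples coloured by replicate number, horizontal bars are group means and the dotted line marks the signal of 200 used as the filter. Aldh1a2 peaks at day 1 with samples of 3835 to 5803, Rdh10 stays high at day 3 with 23696 to 26831, and Crabp1 dips at day 1 to 57.3 to 157.

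Dhrs3, which returns retinaldehyde to retinol, rose at day 1 and was still high at day 3. Its single probe set (102797_at, type A) gave 58.0, 195 and 228 in mesenchymal replicates 1, 3 and 4, then 1017, 735 and 3258 at day 1 and 950, 974 and 1953 at day 3. All day 1 and day 3 samples were above all mesenchymal ones, while day 1 and day 3 overlapped. The log2 change was 2.85 ± 0.50 at day 1 (limma adjusted p = 0.00606) and 2.71 ± 0.50 at day 3 against mesenchymal cells (limma adjusted p = 0.00439). The mesenchymal mean of 160 ± 90.1 lay under 200, so these sizes depend on the constant added before the logarithm.

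The Dhrs3 extremes fell in the samples of highest 18S signal: the lowest mesenchymal value and the highest values at day 1 and day 3. Without those 3 samples the day 1 change was 1.81 (limma adjusted p = 0.00352) and the day 3 change against mesenchymal cells 1.96 (limma adjusted p = 0.00111). With scan group as a block the day 1 change was 2.71 and the day 3 change 2.37, and neither passed (limma adjusted p = 0.105 and 0.195). The part of 18S signal or scan group in the Dhrs3 values was not tested further.

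Cyp26a1, the enzyme that breaks down retinoic acid, showed a day 1 peak near the threshold. Probe set 98320_at (type A) gave 275, 216 and 41.9 in mesenchymal replicates 1, 3 and 4, then 749, 525 and 526 at day 1 and 351, 177 and 237 at day 3. Every day 1 sample was above every sample of the other groups, and mesenchymal and day 3 samples overlapped. The change at day 1 was 1.69 ± 0.42 on the log2 scale (limma adjusted p = 0.0405), from a mean of 178 ± 121 to 600 ± 129. The day 3 mean of 255 ± 88.2 was 1.11 ± 0.42 lower on the log2 scale (log2 change -1.11, limma adjusted p = 0.320). Under the uncertain pairing by replicate number, with day 1 and day 3 samples fitted alone, that fall passed (limma adjusted p = 0.00466). The pairing was read from these same data. Over the 3 groups the F test did not pass (limma adjusted p = 0.0560).

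The Cyp26a1 call at day 1 was lost when any of 7 samples was left out. The limma adjusted p rose to 0.163 without day 1 replicate 1, 0.106 without day 1 replicate 3 and 0.0720 without day 1 replicate 4. Leaving out mesenchymal replicate 3 gave 0.0572 and mesenchymal replicate 4 gave 0.0542. Leaving out day 3 replicate 1 gave 0.0540 and day 3 replicate 3 gave 0.0528. It was 0.107 with scan group as a block. In each of these fits the log2 change was above 0, from 1.13 to 1.89. Its relatives Cyp26b1 and Cyp26c1 were not analysed here.

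Of the receptors, Rarb and Rarg rose at day 1 and Rara did not pass. Rarb, the receptor whose own promoter holds the repeat shown above, rose at day 1 on both of its probe sets. Probe set 105632_at (type B) gave 453, 180 and 298 in mesenchymal replicates 1, 3 and 4, then 2425, 2950 and 1953 at day 1 and 1673, 2046 and 1162 at day 3. No day 1 or day 3 sample overlapped with the mesenchymal samples. The mean went from 311 ± 137 to 2443 ± 499, a log2 change of 2.84 ± 0.29 (7.17-fold, limma adjusted p = 4.11e-05), and at day 3 it was 2.25 ± 0.29 above mesenchymal cells (4.77-fold, limma adjusted p = 0.000140).

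The type C probe set of Rarb, 165690_at, gave 1516, 1323 and 1099 in mesenchymal cells, 9497, 9615 and 7188 at day 1 and 5869, 7061 and 4489 at day 3. Its log2 changes were 2.69 ± 0.25 at day 1 (6.47-fold, limma adjusted p = 9.22e-06) and 2.09 ± 0.25 at day 3 against mesenchymal cells (4.26-fold, limma adjusted p = 4.77e-05). Both probe sets were lower at day 3 than at day 1, by a log2 change of -0.59 ± 0.29 and -0.60 ± 0.25, and neither passed (limma adjusted p = 0.500 and 0.365). Under the uncertain pairing by replicate number, with day 1 and day 3 samples fitted alone, the fall of the first passed (limma adjusted p = 0.0370). Within the scan groups that hold both groups, day 1 stood 2.85 (type B) and 2.67 (type C) above mesenchymal cells on the log2 scale. On type C the 3 day 3 samples stood 2.07 above mesenchymal replicate 3, scanned with them.

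Rarg, the receptor known from cartilage and skin, rose at day 1 and was still high at day 3. Probe set 102419_at (type A) gave 821, 904 and 1075 in mesenchymal replicates 1, 3 and 4, then 2041, 1587 and 1449 at day 1 and 1902, 1431 and 2020 at day 3. The mesenchymal samples were below all others, and day 1 and day 3 overlapped. The log2 change was 0.82 ± 0.19 at day 1 (1.76-fold, limma adjusted p = 0.0305) and 0.89 ± 0.19 at day 3 against mesenchymal cells (1.86-fold, limma adjusted p = 0.0109). Without the 3 samples of highest 18S signal neither passed (0.84 and 0.72, limma adjusted p = 0.0696 and 0.0721).

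The Rarg day 1 call was also lost without mesenchymal replicates 1 or 3, day 1 replicates 1 or 3, or day 3 replicate 1 (limma adjusted p from 0.0525 to 0.147). The day 3 call was lost without day 3 replicate 1 (limma adjusted p = 0.0544). With the replicate number as a block over the 9 samples the day 1 call was lost too (limma adjusted p = 0.0639).

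Rara, the receptor known as the most broadly expressed of the 3, passed in no comparison. Its representative (92901_at, type A) gave 409, 314 and 340 in mesenchymal replicates 1, 3 and 4, then 560, 430 and 469 at day 1 and 542, 500.02 and 459 at day 3. The day 1 and day 3 samples all lay above the mesenchymal ones, by 0.41 ± 0.20 and 0.45 ± 0.20 on the log2 scale, and did not pass (limma adjusted p = 0.311 and 0.193). Probe set 112056_at, the one of highest signal, ranged from 3740 to 4367 over all 9 samples, and its day 1 change was -0.02 ± 0.15 (limma adjusted p = 0.957). Probe set 164041_at ranged from 338 to 1295, with overlapping groups and a day 1 change of 0.61 ± 0.36 (limma adjusted p = 0.407).

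Crabp1, which binds retinoic acid in the cytoplasm and is known from early neural crest and limb mesenchyme, was lowest at day 1. Probe set 98108_at (type A) gave 609, 696 and 901 in mesenchymal replicates 1, 3 and 4, then 157, 142 and 57.3 at day 1 and 380, 363 and 244 at day 3. The groups did not overlap in any pair, with mesenchymal samples highest. The log2 change was -2.26 ± 0.30 at day 1 (limma adjusted p = 0.000816), from 735 ± 149.5 to 119 ± 53.9, and the day 1 mean lies under 200.

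From day 1 to day 3 Crabp1 differed by 1.203 ± 0.30 on the log2 scale, which did not pass over the 9 samples (limma adjusted p = 0.0812). Under the uncertain pairing by replicate number, in a fit of day 1 and day 3 samples alone, Crabp1 passed (limma adjusted p = 0.0228). At day 3 it was below mesenchymal cells by a log2 change of -1.05 ± 0.30 (2.08-fold lower, limma adjusted p = 0.0424). That call was lost without any of 7 samples: all 3 mesenchymal ones, all 3 day 3 ones and day 1 replicate 3 (limma adjusted p from 0.0548 to 0.117). It was also lost with the replicate number as a block over the 9 samples (limma adjusted p = 0.0706). With scan group as a block the day 1 change was -1.76 (limma adjusted p = 0.0635) and the day 3 change -0.38 (limma adjusted p = 0.758). The endothelial marker sums given above were also highest in mesenchymal samples. The erythroid sums were higher there than at day 3 but overlapped with day 1. The part of these cells in the Crabp1 values was not tested.

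Crabp2, which hands retinoic acid to its receptors, fell between day 1 and day 3 by its representative. Probe set 100127_at (type A) gave 2268, 2711 and 2883 in mesenchymal replicates 1, 3 and 4, then 3277, 3588 and 2126 at day 1 and 988, 1591 and 576 at day 3. All day 3 samples were below all others, and mesenchymal and day 1 samples overlapped. The log2 change was 0.16 ± 0.30 at day 1 (limma adjusted p = 0.827), -1.54 ± 0.30 from day 1 to day 3 (2.91-fold lower, limma adjusted p = 0.0238) and -1.38 ± 0.30 at day 3 against mesenchymal cells (2.60-fold lower, limma adjusted p = 0.0118). Paired by replicate number, with day 1 and day 3 samples fitted alone, the adjusted p of the fall was 0.000185.

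The fall of Crabp2 from day 1 to day 3 was lost without day 1 replicates 1 or 3 or day 3 replicates 1 or 4 (limma adjusted p = 0.105, 0.117, 0.0900 and 0.0566). With scan group as a block the fall was -1.46 (limma adjusted p = 0.1002) and the difference from mesenchymal cells -1.07 (limma adjusted p = 0.364). The second Crabp2 probe set, 137179_at on type C, went the other way. It gave 311, 272 and 214 in mesenchymal cells, 584, 353 and 710 at day 1 and 686, 478 and 1195 at day 3, and its day 3 samples were all above its mesenchymal ones, by 1.33 ± 0.43 on the log2 scale (2.51-fold, limma adjusted p = 0.0639). The direction of Crabp2 at day 3 thus depends on the probe set.

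**Figure D3:**
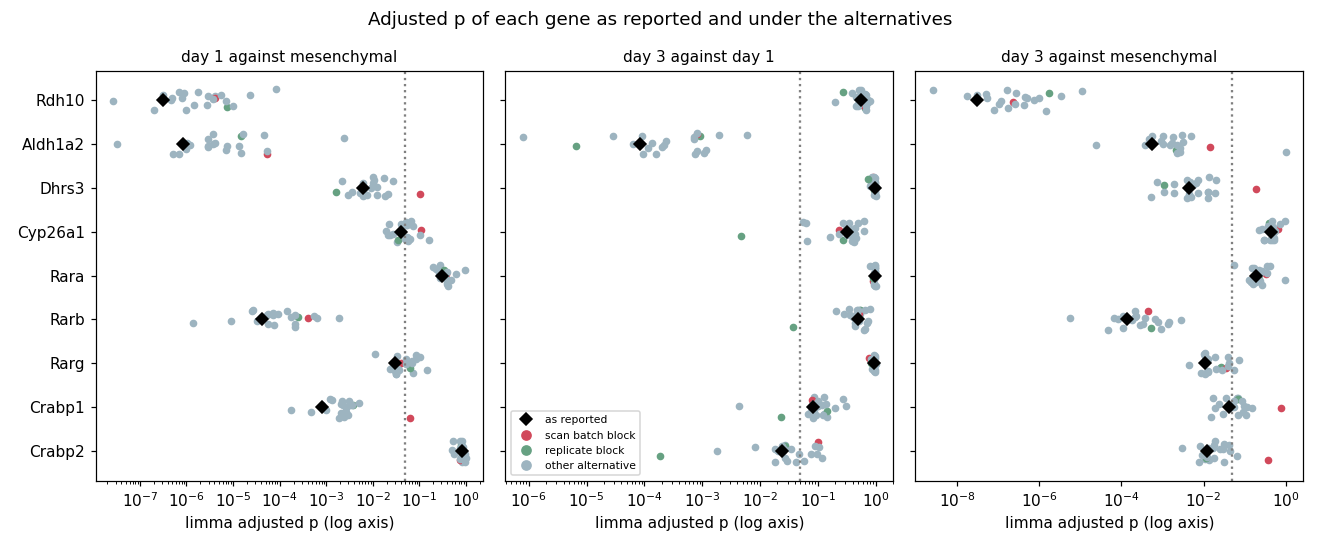
Limma adjusted p (x axis, log scale) of each gene as reported (diamonds) and under the alternative settings (dots), in the 3 comparisons, with the dotted line at 0.05. Rdh10, Aldh1a2 and Rarb lie left of the line at day 1 under all 22 settings. The day 3 dots of Rdh10 and Rarb with the scan block are no test of scan, since on type B the day 3 samples form a scan group of their own. Cyp26a1 lies left of it in 9 of 22 settings at day 1.

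Other genes of the pathway were taken from named lists, and their counts are to be read against the shares of all tested probe sets that passed: 4.79% at day 1, 1.61% from day 1 to day 3, 10.6% at day 3 against mesenchymal cells and 8.95% by the F test. With lists this short, a count of 0 or 1 is near those shares. The shares over tested genes, given above for higher and lower, were larger in each comparison. Of 10 genes for retinol transport and storage, 7 had a probe set of their own, 3 reached the signal filter and 1 passed in any comparison. That gene was Rbp4, the blood carrier of retinol, with 30.8, 28.3 and 41.4 in mesenchymal cells, 142, 131 and 33.4 at day 1 and 515, 798 and 593 at day 3. It rose by 2.24 ± 0.37 on the log2 scale from day 1 to day 3 (limma adjusted p = 0.00825) and stood 3.02 ± 0.37 above mesenchymal cells (limma adjusted p = 0.000196). The mesenchymal and day 1 means of Rbp4 (33.5 and 102) lay under 200, so these sizes depend on the constant added before the logarithm. The list's median log2 change was 0.78 at day 1, 0.19 from day 1 to day 3 and 1.28 at day 3 against mesenchymal cells. Stra6, the cell's retinol uptake receptor, stayed below the filter in every group.

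Of 21 other retinoid dehydrogenases and oxidases, 18 were measured and 9 tested, and only Rdh14, which can oxidise retinol, passed in any comparison. It gave 397, 497 and 96.0 in mesenchymal replicates 1, 3 and 4, then 1221, 879 and 1000.4 at day 1 and 1321, 1138 and 734 at day 3. No day 1 or day 3 sample overlapped with the mesenchymal ones. Rdh14 rose by 1.71 ± 0.40 at day 1 (3.26-fold, limma adjusted p = 0.0245) and was 1.72 ± 0.40 above mesenchymal cells at day 3 (limma adjusted p = 0.0131). The list's medians were -0.06, -0.30 and -0.37 in the same order of comparisons. Fabp5, a fatty acid carrier that can also bind retinoic acid, was the 1 tested gene of 3 listed breakdown enzymes and carriers and passed in none (log2 changes -0.16, -0.25 and -0.42).

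Of 18 receptor partners and cofactors, 16 were measured and 13 tested. Zfp423, a zinc finger protein that works with retinoic acid receptors, rose at day 1: it gave 1321, 1504 and 1574 in mesenchymal cells, 3162, 2929 and 2144 at day 1 and 1649, 2014 and 1701 at day 3. The day 1 change was 0.87 ± 0.19 (1.82-fold, limma adjusted p = 0.0154), and a second probe set showed 0.83 ± 0.27 (limma adjusted p = 0.0947). Sin3a, part of a corepressor complex, was lower at day 3 than in mesenchymal cells by a log2 change of -0.63 ± 0.18 (limma adjusted p = 0.0470), with an F test that did not pass (limma adjusted p = 0.0981). The receptor partners Rxra and Rxrb passed in no comparison, with log2 changes from -0.20 to 0.17 for Rxra and from -0.08 to -0.04 for Rxrb, and Rxrg was below the filter. The list's medians were 0.15, -0.20 and -0.08.

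Of 16 genes known from other systems as responsive to retinoic acid, 13 were measured, 8 of them stayed below the filter, and 5 were tested. None of the 5 passed in any comparison, where 4.79%, 1.61% and 10.6% of all tested probe sets did, so a count of 0 of 5 shows no difference from them. Their median log2 changes were -0.08, -0.34 and -0.43. The 8 genes whose representative stayed below the filter were Hoxb4, Meis1, Meis2, Tgm2, Cdx1, Stra8, Stra6 and Nr2f1. Of these, Tgm2, a transglutaminase, gave 52.4, 46.6 and 38.9 in mesenchymal cells, 35.2, 32.3 and 74.0 at day 1 and 142, 183 and 239 at day 3. Its day 3 samples were above all others, and it was not tested. Others of these genes went the other way without overlap. Stra6 was lower at day 3 than in both other groups, and Hoxb4 lower at day 3 than in mesenchymal cells. Nr2f1 and Stra8 were lower at day 1 than in mesenchymal cells. Meis1, Meis2 and Cdx1 overlapped in every comparison. All of these lay below the filter and were not tested.

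Genes whose log2 values followed a gene of the pathway most closely over the 9 samples were ranked by Pearson correlation among 11228 genes, as a description. The 9 samples fall into 3 groups, so a high value follows from sharing the order of the groups. For Rdh10 these were Deptor (0.993), Gpc4 (0.992) and Rnd3 (0.992), with log2 changes of 1.93, 2.73 and 1.22 at day 1 and of 0.00, 0.07 and 0.08 from day 1 to day 3. For Aldh1a2 they were B4galt6 (0.983), Pafah1b3 (0.978) and Trim2 (0.972), each with a positive log2 change at day 1 (1.37, 0.63 and 1.87) and a negative one from day 1 to day 3 (-0.88, -0.39 and -1.51). For Rarb they were Tmem176a (0.986), Pde9a (0.982) and Bloc1s1 (0.981), and for Rarg Atxn1l (0.979), Cyb561a3 (0.977) and Timp3 (0.969). For Dhrs3 they were Srebf1 (0.981), Galnt2 (0.963) and Myl12b (0.953). For Crabp1 they were Sfr1 (0.963), Ola1 (0.956) and Nrp2 (0.955), and for Crabp2 Rasgef1b (0.957), Vangl2 (0.957) and Rcbtb1 (0.950).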

How the data were processed

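The values are the authors' deposited MAS5 signal intensities (linear scale, Affymetrix MG_U74Av2, Bv2 and Cv2 arrays, 1 array of each type per sample), named MAS5 per the submitters' processing notes. The deposited trimmed mean was about the same on every array (near 1500.3 to 1500.9). No other upstream step is given in the sources used here. Signals were multiplied by 1 factor per array so that the trimmed mean (2% off each end) became 500, the 66 control probe sets were dropped, and values were taken as log2(signal + 50); the authors deposited no log2 values. Probe sets with a mean of at least 200 in 1 group were tested (23545 of 36701; 13156 were not). limma 3.58.1 in R 4.3.3 fitted 9 samples per array type (lmFit, eBayes with trend), and p-values were adjusted by Benjamini-Hochberg over the 3 types together. The intensities give no read depth: the number of arrays limits the precision. Gene names came from GEO's platform annotation, with symbols updated through gene identifiers: 29131 probe sets had 1 gene, 724 several and 6846 none. Scripts were tested on simulated data with 67, 67 and 66 of 23545 probe sets changed at day 1 by 1.5-, 2- and 4-fold. The limma test recovered 1.49%, 14.9% and 48.5% of them, and 12.2% of its 49 calls were false. In the data 1128 probe sets passed at day 1, more than were changed in the simulation, so these shares need not hold for the data. A gene that did not pass may still have changed, and a gene that passed near the threshold may be a false call.

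The members and lists were chosen with earlier results of these data known. All members are named, and of the listed pathway genes those that passed in a comparison, plus Rxra, Rxrb and Rxrg. Outside this rule, Fabp5, Stra6, Tgm2 and the other responsive genes below the filter were named after their values were seen. Likeness was ranked for members that passed the F test. Deviations from the group means were correlated between samples. Same-numbered day 1 and day 3 samples gave 0.107, 0.126 and 0.251, and different-numbered ones -0.177 to 0.0813. Day 1 replicate 1 with day 3 replicate 3 (0.0813) lay near the lower same-numbered values. So did day 1 replicate 3 with day 3 replicate 1 (0.0613). The numbers were taken as pairs from these data, not from the labels. Mesenchymal samples did not pair (-0.202 to 0.0617). The highest of the pairs, 0.251, joins 2 samples of high 18S signal, and the third such sample, mesenchymal replicate 1, correlated with them at 0.195 and 0.237. The paired calls rest on this check, which does not settle whether the samples were paired. The block on day 1 and day 3 samples alone, and the fit without the samples of highest 18S signal, were added after seeing the data. Promoter sequences came from RefSeq (GRCm38.p6); those of Rdh10 and Crabp2 were not used here.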

Additional observations from a re-analysis of the deposited data

How the results depend on the processing

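Of the 9 genes, Rdh10, Aldh1a2 and Rarb kept their day 1 calls under all 22 alternatives, and Aldh1a2 its fall to day 3 under all 23. At day 3 against mesenchymal cells Rdh10 and Rarb kept theirs under every alternative that tests it. The scan block does not for these type B probe sets, whose day 3 samples form a scan group of their own. The day 3 excess of Aldh1a2 over mesenchymal cells was 0.00 on the log2 scale with its probe set of highest mean as representative. With scan group as a block 4 of the 9 genes passed at day 1 (Rdh10, Aldh1a2, Rarb and Rarg), 1 from day 1 to day 3, 4 at day 3 against mesenchymal cells and 4 by the F test. The day 3 and F counts include Rdh10 and Rarb, for which the block could not separate scan from day 3. On type A the blocked day 1 comparison rests on day 1 replicate 1. The blocked comparison of day 3 with mesenchymal cells is linked there only through day 1 samples. From day 1 to day 3, 1 gene passed with median scaling and 1 without the trend and with robust fitting. Leaving out 1 sample gave 5 to 7 genes at day 1, 1 to 2 from day 1 to day 3, 5 to 7 at day 3 against mesenchymal cells and 6 to 8 by the F test; without day 1 replicates 1 or 3 or day 3 replicates 1 or 4, Crabp2 was the gene lost. The replicate block over the 9 samples ended the calls of Rarg at day 1 and Crabp1 at day 3 against mesenchymal cells, as given above. On day 1 and day 3 samples alone, where the numbers were taken as pairs, the replicate block gave 5 genes and 1153 of all probe sets from day 1 to day 3, against 380. Without the 3 samples of highest 18S signal 5 genes passed at day 1, 2 from day 1 to day 3, and 6 at day 3 against mesenchymal cells.

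Small changes that did not pass in any setting turned sign. For Dhrs3 from day 1 to day 3 the log2 change was 0.071 with array weights and 0.15 without the samples of highest 18S signal, and it ranged from -0.56 to 0.47 when 1 sample was left out (above 0 without day 1 replicate 4, day 3 replicate 1 or day 3 replicate 3). For Rara it was -0.024 at day 1 with the probe set of highest mean, and from day 1 to day 3 it ranged from -0.034 to 0.14 (below 0 without day 1 replicate 3 or day 3 replicate 1). For Rarg from day 1 to day 3 it was -0.017 with array weights, -0.12 without the samples of highest 18S signal, and -0.027 to 0.22 when 1 sample was left out (below 0 without day 1 replicate 4 or day 3 replicate 4). The cause of these changes was not tested.

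Counts over all probe sets moved by more than 1.5 times under the scan block (F test 1093 against 2107, day 1 615 against 1128, day 3 against mesenchymal cells 1143 against 2489) and array weights (3957, 2005 and 4246, and 1131 against 380 from day 1 to day 3). They also moved without day 1 replicates 1 or 3 (555 and 573 at day 1), without day 3 replicates 1 or 3 (1341 and 1382 by the F test, 1457 and 1482 at day 3 against mesenchymal cells), and from day 1 to day 3 with robust fitting (239), without any day 1 sample (187 to 233) and without day 3 replicates 1 or 3 (167 and 181). The number of arrays limits the precision of every gene. Cyp26a1, Dhrs3 and Crabp1 had a group mean below the filter (178, 160 and 119), so the size of their changes depends on the constant added before the logarithm.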

Other observations

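Rarb and Cyp26a1 were 2 of 31 genes with a direct repeat with a 5-base spacer in their promoter window, and 5 of the other genes were measured and tested: Blvrb, Hbb-y, Ppbp, Syndig1 and Tnfsf13b. At day 1, 1 of the 5 rose (Syndig1, a synapse protein, log2 change 0.81, limma adjusted p = 0.0408) and 1 fell (Ppbp, a platelet chemokine, -2.22, limma adjusted p = 0.0169). Over all tested probe sets 3.61% rose and 1.18% fell there. At day 3 against mesenchymal cells Ppbp (-2.03, limma adjusted p = 0.0162) and the embryonic globin Hbb-y (-2.61, limma adjusted p = 0.0283) were lower and none was higher, where 4.03% of all tested probe sets were lower and 6.54% higher. Counts over 5 genes are too small to read against these shares. Blvrb and Tnfsf13b passed in no comparison, and none of the 5 passed from day 1 to day 3.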
